A study of Mus musculus with 36 samples.

Results

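The comparison described here is Bmal1-KO against WT macrophages that received vehicle. Its libraries were chosen by their labels, as the 6 Bmal1-KO and the 3 WT libraries with DMSO vehicle. They are 9 of the 36 libraries of the series. The study examined how the compound CCM acts on macrophages with and without Bmal1, at rest and under LPS. Bone-marrow derived macrophages (BMDMs) were grown from female C57BL/6 mice aged 13 to 17 weeks, for 7 days with the growth factor MCSF and 20% serum. KO cells came from LysM-Cre;Bmal1 flox/flox mice (n = 6), and WT cells from Bmal1 flox/flox littermates that lack Cre (n = 3), so that both groups carry the floxed alleles. Each of these cultures was treated for 6 h, with DMSO alone in the vehicle groups. The other groups, used here for comparison, received 100 nM LPS, 100 µM CCM or both, with 6 KO and 3 WT libraries each. The labels do not say that each replicate is a separate mouse. LysM-Cre places the recombinase at the Lyz2 gene, so it acts in myeloid cells, and each cell of a culture need not have lost Bmal1.

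Bmal1 (gene symbol Arntl) and its partner Clock form a transcription factor that binds E-box elements and drives the genes of the Per and Cry repressors, which in turn block it. The same factor drives the nuclear receptors Nr1d1 and Nr1d2 (REV-ERB alpha and beta), which repress Arntl and Cry1. In macrophages this clock is known for setting daily rhythms in inflammatory genes.

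Between 13469262 and 28288923 read pairs were counted on genes in each of the 9 vehicle libraries. Levels are in CPM from edgeR, counts divided by library size after TMM scaling over these 9 libraries. A library that stood apart was KO replicate 6, with the fewest pairs. Across the 14385 genes tested, its log2 levels correlated with those of the other 8 libraries at r between 0.919 and 0.944, while those 8 correlated among themselves at 0.987 to 0.995 (across genes, which are not independent replicates). In KO replicate 6, 1795 genes were more than 2-fold above and 2009 more than 2-fold below the mean of the other 5 KO libraries. Its levels followed gene length. With genes in 4 groups of about equal number by length, the median log2 difference from the other KO libraries was 0.51 in the shortest group and -0.62 in the longest, against -0.06 to 0.14 and -0.12 to 0.05 for the other 5 KO libraries. Mitochondrially encoded genes took 0.391% of its counts, and 1.31 to 1.57% of the counts in the other 8 libraries. No label gives a reason to leave this library out, so the count of called vehicle genes is given with and without it.

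**Figure D1:**
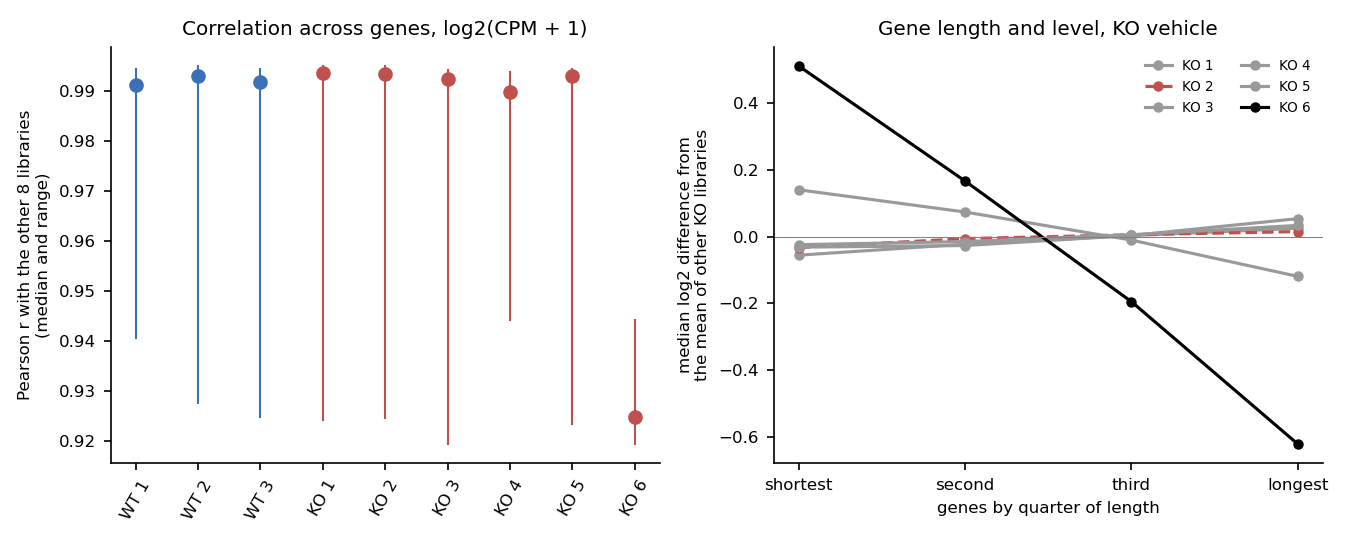
Left, Pearson r of each vehicle library with the other 8 across genes on log2(CPM + 1), as the median (point) and the range (line), WT in blue and KO in red. Right, median log2 difference of each KO library from the mean of the other KO libraries (replicate 6 left out of that mean), for genes in 4 groups by length; KO replicate 6 runs from 0.51 down to -0.62, and the other 5 stay between -0.12 and 0.14.

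The library labelled KO replicate 2 stood apart in a different way, at some genes and not at others. Its correlations with the other libraries were as high as theirs, with a median r of 0.993. At some of the genes that separated the other 5 KO libraries from WT, however, it lay at or near the level of the WT libraries. For Cry1 it had 9.16 CPM, where WT libraries had 8.05 to 9.95 and the other 5 KO libraries 20.5 to 37.1. For Lyz1 it had 4.76 CPM, where WT had 3.55 to 7.04 and the other KO libraries 52.2 to 152. The KO libraries with this replicate number under LPS, CCM and both had Lyz1 at 3.14 to 4.49 CPM, where the other KO libraries of those treatments had 27.8 or more. Of the 4 treatments, the library with this number lay within the WT range in 3 for Arntl, Cry2 and Lyz2. That number was 2 for Cry1, Cx3cr1, Lyz1 and Npas2, and 1 for Nr1d1, Nr1d2 and Per2. What the cells of the library labelled KO replicate 2 carried cannot be read from counts of whole genes. It was neither renamed nor moved to another group. The main results are therefore given with all 9 libraries and, as a choice made after these values were seen, without KO replicates 2 and 6 (4 KO and 3 WT libraries). That second choice used the levels of Cry1, Nr1d2, Lyz1 and Lyz2, so for these 4 genes the fit of 7 libraries is a description and no independent test.

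With all 9 libraries, edgeR's quasi-likelihood test (two-sided) called 0 of 14385 genes (0%) with a Benjamini-Hochberg adjusted p threshold of 0.05, which the word called refers to throughout. An unadjusted p under 0.05 was reached by 118 genes, 54 of them higher and 64 lower in KO. This count, like the others of its kind in this paragraph, is below a share of 0.05 of the genes tested. That share is what such a p gives with no genotype difference, so these counts point to no candidate genes. DESeq2 called 1 gene, Lyz1 (adjusted p = 0.00225), with 276 at an unadjusted p under 0.05. Without KO replicate 6, edgeR called 0 of 14313 genes (0%), with 409 at an unadjusted p under 0.05, and DESeq2 called 0. Without the library labelled KO replicate 2, edgeR called 0 of 14284 genes (0%), with 127 at an unadjusted p under 0.05, and DESeq2 was not run. Without KO replicates 2 and 6 it called 5 of 14310 genes (0.0349%), Cry1, Lyz1 and Cx3cr1 higher in KO and Nr1d2 and Lyz2 lower, with 445 at an unadjusted p under 0.05, and DESeq2 called 8, these 5 with Per2, Clec4n and Gm12411. Leaving out a further library gave 3 to 6 genes, 3 without WT replicate 1, WT replicate 3, KO replicate 3 or KO replicate 5. The spread between libraries of a group, as edgeR's biological coefficient of variation, was 0.275 with all 9 libraries, 0.131 without KO replicate 6 and 0.132 without KO replicates 2 and 6. Among the 3 WT libraries alone it was 0.124, and among the 6 KO libraries alone 0.297 (0.123 without KO replicate 6).

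**Figure D2:**
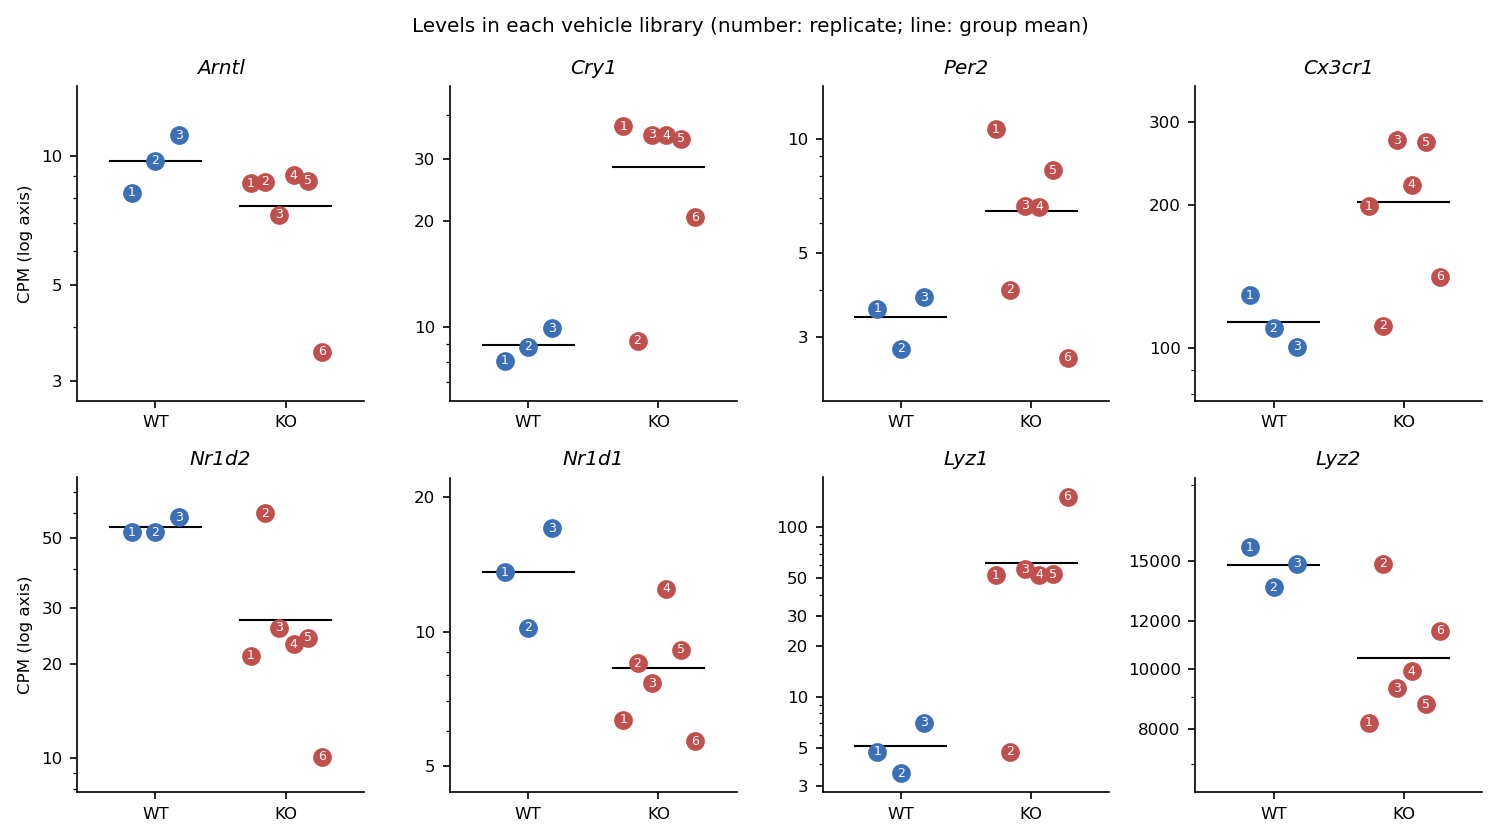
CPM of 8 genes in each vehicle library on log axes, WT in blue and KO in red, with the replicate number in each point and the group mean as a line. The point of KO replicate 2 lies among the WT points for Cry1 (9.16 CPM), Lyz1 (4.76) and Lyz2 (14870.5), and KO replicate 6 is lowest for Arntl (3.50) and highest for Lyz1 (152).

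The targeted gene was read first. Arntl (ENSMUSG00000055116, chr7:113207465-113314126 on GRCm38, plus strand, overlapping Gm45355) had 8.22, 9.76 and 11.2 CPM in the WT libraries. In the KO libraries it had 3.50 to 9.02 CPM, with a median of 8.68. The groups overlapped, since 4 of the 6 KO libraries lay above the lowest WT library, and KO replicate 6 was far below all 8 others. The log2 fold change was -0.34 with a standard error of 0.262 (edgeR adjusted p = 1), and the two-sided exact permutation test over 84 arrangements of the labels gave p = 0.119, where 0.0238 is the smallest p it can give. Without KO replicates 2 and 6 the log2 fold change was -0.21 (standard error 0.137). The same test for Arntl gave p = 0.0714 under LPS, 0.119 under CCM and 0.0238 under both (exact permutation). Under both, WT libraries had 10.3 to 11.6 CPM and KO libraries 3.49 to 8.15, without overlap, with -0.93 ± 0.252 as log2 fold change and standard error (edgeR adjusted p = 0.762, not called). Counts over the whole gene include exons outside the floxed segment, so these values do not measure the deletion. Bulk counts also cannot tell fewer cells with a transcript from less of it per cell, here or for any gene below.

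Of the other clock activators, Clock, the partner of Bmal1, had 37.6, 44.7 and 44.3 CPM in WT and 19.5 to 53.8 in KO, with a median of 46.1. Its log2 fold change was -0.02 with all 9 libraries and 0.10 without KO replicates 2 and 6. Arntl2, a paralogue of Arntl, was low, with 0.374, 0.801 and 0.752 CPM in WT and 0.189 to 0.669 in KO. These ranges overlapped, and its log2 fold change was -0.47 with all 9 libraries and -0.29 without KO replicates 2 and 6, not called. Npas2, a paralogue of Clock that can take its place, had 1.79, 1.45 and 1.57 CPM in WT and 0.852 to 3.84 in KO, with a median of 2.49. KO replicates 1, 3, 4 and 5 lay above each WT library, the library labelled KO replicate 2 lay among them, and KO replicate 6 lay below. The log2 fold change of Npas2, whose interval overlaps Gm20428 and Gm3617, was 0.57 with all 9 libraries and 0.85 without KO replicates 2 and 6 (edgeR adjusted p = 0.999, not called).

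Cry1 (ENSMUSG00000020038, chr10:85131700-85185064, minus strand) encodes a cryptochrome, which represses Bmal1 and Clock. It had 8.05, 8.81 and 9.95 CPM in the WT libraries and 9.16 to 37.1 in the KO libraries, with a median of 34.6. KO replicates 1, 3, 4 and 5 stood close together at 34.2 to 37.1 CPM, KO replicate 6 at 20.5, and the library labelled KO replicate 2 within the WT range. With all 9 libraries the log2 fold change was 1.67, with a standard error of 0.406 (edgeR adjusted p = 1). In the fit of 7 libraries it was 1.98 (standard error 0.0934, edgeR adjusted p = 2.96e-05), and 4 of 4 KO libraries lay above 3 of 3 WT libraries. The mean of those 4 was 35.4 ± 1.24 CPM (SD), 3.96-fold the WT mean of 8.94 ± 0.956.

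Among the other repressors, Per2, a period protein, had 3.57, 2.80 and 3.83 CPM in WT and 2.65 to 10.6 in KO, with a median of 6.64. KO replicates 1, 3, 4 and 5 lay above WT at 6.63 to 10.6 CPM, the library labelled KO replicate 2 was just above it, and KO replicate 6 was below. For Per2 the log2 fold change was 0.93 with all 9 libraries (standard error 0.387, edgeR adjusted p = 1) and 1.23 without KO replicates 2 and 6 (standard error 0.208, edgeR adjusted p = 0.358), so that it was called in neither, though edgeR called it in the fit of 7 libraries with no filter on low counts. Cry2, the second cryptochrome, had 10.1, 10.6 and 9.10 CPM in WT and 9.11 to 15.6 in KO, with a median of 13.2. Each KO library other than that labelled replicate 2 was above the WT libraries, by little in replicate 6. Cry2, which overlaps D930015M05Rik, had 0.36 as its log2 fold change with all 9 libraries and 0.51 without KO replicates 2 and 6 (standard error 0.112, edgeR adjusted p = 0.999, not called). Per1, Per3, Ciart, Bhlhe40 and Bhlhe41 had log2 fold changes between -0.23 and 0.11 with all 9 libraries. Of the 8 repressors tested, 6 were higher and 2 lower in KO, with a median of 0.07 (0.01 over all genes tested). Scaled by total counts alone, 4 were higher and 4 lower. With all 9 libraries 0 of the 8 were called in edgeR. Without KO replicates 2 and 6 Cry1 alone was called (0.0349% over all genes), and its own level helped to choose the libraries left out.

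The nuclear receptor Nr1d2 (ENSMUSG00000021775, on chromosome 14) encodes REV-ERB beta. It had 52.2, 52.2 and 58.3 CPM in the WT libraries and 10.1 to 59.98 in the KO libraries, with a median of 23.6. KO replicates 1, 3, 4 and 5 had 21.2 to 26.01 CPM, KO replicate 6 was lower, and the library labelled KO replicate 2 was above each WT library. With all 9 libraries the log2 fold change was -0.98, with a standard error of 0.411 (edgeR adjusted p = 1), and without KO replicates 2 and 6 it was -1.21 (standard error 0.0814, edgeR adjusted p = 0.000275). Nr1d1, which encodes REV-ERB alpha and overlaps Thra on the other strand, had 13.6, 10.2 and 17.03 CPM in WT and 5.68 to 12.5 in KO, with a median of 8.09. The library labelled KO replicate 2, at 8.51 CPM, lay with the other KO libraries here, and KO replicate 4 alone reached the WT range. Its log2 fold change was -0.71 with all 9 libraries (standard error 0.251, edgeR adjusted p = 1) and -0.61 without KO replicates 2 and 6, not called in either. Rora, an activator of Arntl, had a log2 fold change of 0.12 with all 9 libraries and 0.29 without KO replicates 2 and 6.

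The stretches upstream of Cry1 and Nr1d2 are shown because these clock genes separated 5 of the KO libraries from WT in opposite directions. Sequences are from RefSeq on GRCm38.p6, 250 bases up to the start of transcription, read on the gene's strand (minus for both), for Cry1 at chr10:85185055-85185304 and for Nr1d2 at chr14:18239107-18239356. The E-box CACGTG, the same on both strands, is in capitals in Cry1, where it starts 60 bases before transcription. The receptor half-site AGGTCA, searched with its reverse complement TGACCT, is in capitals in Nr1d2, 77 bases before transcription.
Cry1: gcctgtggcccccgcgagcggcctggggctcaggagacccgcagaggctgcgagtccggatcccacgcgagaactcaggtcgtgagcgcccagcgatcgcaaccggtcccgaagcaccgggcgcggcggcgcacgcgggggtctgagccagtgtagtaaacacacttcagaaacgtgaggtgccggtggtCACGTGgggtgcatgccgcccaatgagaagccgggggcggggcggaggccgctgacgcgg
Nr1d2: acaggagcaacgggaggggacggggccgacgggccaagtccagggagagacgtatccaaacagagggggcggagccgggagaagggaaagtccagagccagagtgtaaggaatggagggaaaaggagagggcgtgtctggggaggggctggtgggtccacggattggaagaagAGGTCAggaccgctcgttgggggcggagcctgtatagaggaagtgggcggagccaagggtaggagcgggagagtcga
Of the 32851 RefSeq promoters, 6.02% hold CACGTG in these 250 bases and 14.0% hold AGGTCA on either strand. Of the 30 clock genes listed, 23 had an entry, and Per2 was among those that had none. At 1 or more of their starts, 5 of the 23 hold CACGTG (Bhlhe41, Ciart, Cry1, Per1 and Tef) and 5 hold AGGTCA (Clock, Nampt, Nfil3, Nr1d2 and Per1). Of those with CACGTG, Cry1 alone was called in the fit of 7 libraries (0.0349% over all genes), which its own level helped to choose, while Bhlhe41, Ciart, Per1 and Tef had log2 fold changes of 0.05, 0.12, -0.11 and 0.19 there. A match is a description of the letters and no measurement of binding.

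Among output genes of the clock, Dbp, a PAR bZIP factor and a classical Bmal1 target, had 6.68, 5.55 and 6.74 CPM in WT and 5.35 to 7.08 in KO. These ranges overlapped in full, and the log2 fold change of Dbp was -0.07. Tef, of the same family, had 59.2, 55.3 and 60.4 CPM in WT and 59.2 to 75.1 in KO, with a log2 fold change of 0.19. Of the 7 output genes tested, 3 were higher and 4 lower, with a median of -0.01 (0.12 without KO replicates 2 and 6), and of the 6 kinases and ligases that act on clock proteins, 3 were higher and 3 lower, with a median of -0.03 (-0.01 without KO replicates 2 and 6). In neither group was a gene called, with or without KO replicates 2 and 6, in edgeR.

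**Figure D3:**
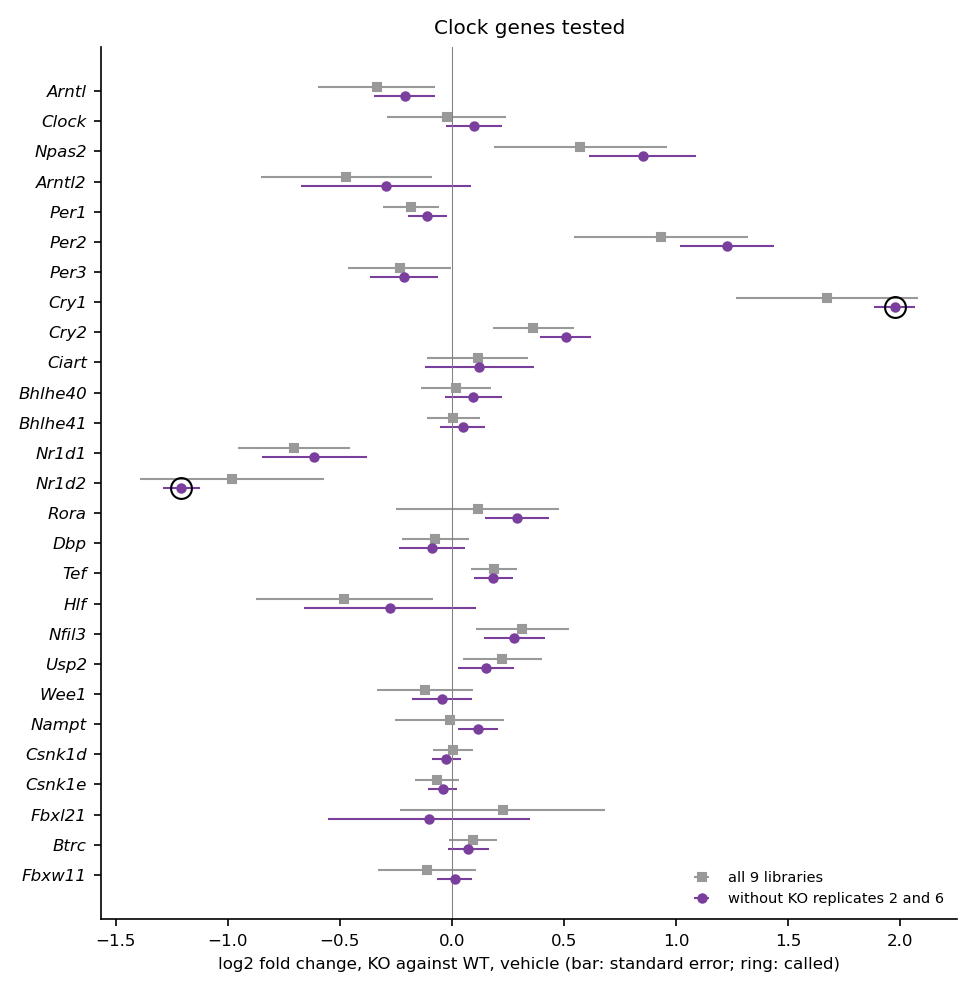
Log2 fold change (KO against WT, vehicle) of clock genes tested, with the standard error, with all 9 libraries (grey squares) and without KO replicates 2 and 6 (purple circles); rings mark called genes. Cry1 (1.98) and Nr1d2 (-1.21) carry rings without those 2 libraries and none with all 9, and Per2 (1.23) carries none.

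Lyz2 encodes the lysozyme of macrophages, and its locus holds the Cre of these KO mice. Lyz1, the lysozyme of intestinal Paneth cells, is its neighbour. On chromosome 10 their intervals, both on the minus strand, run from 117277331 to 117282321 (Lyz2, ENSMUSG00000069516) and from 117287797 to 117292868 (Lyz1, ENSMUSG00000069515), so that their lower ends lie 10.5 kb apart. Lyz2 had 15822, 13628 and 14878 CPM in the WT libraries and 8185 to 14870.5 in the KO libraries, with a median of 9618. The library labelled KO replicate 2 lay within the WT range, and the other 5 KO libraries lay below it, at 8185 to 11562 CPM. For Lyz2 the fit of all 9 libraries gave -0.50 ± 0.190 (log2 fold change and standard error; edgeR adjusted p = 1), and that without KO replicates 2 and 6 gave -0.71 ± 0.0795 (edgeR adjusted p = 0.0196). The call of Lyz2 was lost when WT replicate 1, WT replicate 3, KO replicate 3 or KO replicate 5 was also left out. Those 4 KO libraries had a mean of 9048 ± 744 CPM (SD), 0.612 of the WT mean of 14776 ± 1101.

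Lyz1 had 4.73, 3.55 and 7.04 CPM in the WT libraries and 4.76 to 152 in the KO libraries, with a median of 52.7. KO replicates 1, 3, 4 and 5 stood at 52.2 to 56.8 CPM, KO replicate 6 far above them, and the library labelled KO replicate 2 among the WT libraries. The log2 fold change of Lyz1 was 3.58 with all 9 libraries (standard error 0.868, edgeR adjusted p = 1) and 3.36 without KO replicates 2 and 6 (standard error 0.179, edgeR adjusted p = 4.58e-05). The mean of those 4 libraries was 53.6 ± 2.14 CPM, 10.5-fold the WT mean of 5.11 ± 1.78. The transcripts of these paralogues share sequence. Of the 1214 windows of 50 bases in Lyz1 transcripts, 195 (16.1%) also occur in Lyz2. Of the 1164 windows of 100 bases, 24 (2.06%) do. The split of read pairs between the 2 genes, and the level of Lyz1 beside the far more abundant counts of Lyz2, is therefore uncertain.

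The upstream stretches of both lysozymes are shown because these neighbours lay on opposite sides of WT in the same 5 KO libraries. They are from RefSeq on GRCm38.p6, minus strand, 250 bases up to the start of transcription, for Lyz1 at chr10:117292869-117293118 and for Lyz2 at chr10:117282273-117282522. Capitals mark AGGTCA, 133 bases before the start of Lyz1, and Lyz2 holds neither this half-site nor CACGTG in its window.
Lyz1: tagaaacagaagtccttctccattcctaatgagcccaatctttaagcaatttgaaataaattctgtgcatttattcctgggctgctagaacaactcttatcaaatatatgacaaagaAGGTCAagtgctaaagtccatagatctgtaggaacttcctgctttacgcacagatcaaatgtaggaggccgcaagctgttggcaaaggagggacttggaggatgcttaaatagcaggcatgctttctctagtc
Lyz2: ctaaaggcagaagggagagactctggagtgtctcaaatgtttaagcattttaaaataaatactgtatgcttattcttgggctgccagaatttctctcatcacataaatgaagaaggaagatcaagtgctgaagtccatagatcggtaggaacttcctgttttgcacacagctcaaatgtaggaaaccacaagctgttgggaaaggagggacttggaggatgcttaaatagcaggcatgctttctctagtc
Over the last 100 bases before the start, 92 are the same in both, and the last 50 are the same without a break.

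The genes around the Cre insertion were read for their own levels. Of the 43 genes tested that start within 5 Mb of Lyz2, edgeR called 0 with all 9 libraries, and Lyz1, Lyz2 and Wif1 had an unadjusted p under 0.05. Their median log2 fold change was 0.01, as over all genes tested. In the fit of 7 libraries 2 of 44 were called (0.0349% over all genes), Lyz1 and Lyz2, whose levels were used in choosing those libraries. Nearest to them, Yeats4 and Cpsf6, on either side, had log2 fold changes of 0.04 and -0.03 there. Of the 56 genes tested within 5 Mb of Arntl, edgeR called 0 in either fit, with 0 at an unadjusted p under 0.05, with a median of -0.01 with all 9 libraries and 0.02 without KO replicates 2 and 6.

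Cx3cr1 (ENSMUSG00000052336, chr9:119901616-120069879, minus strand) encodes the receptor for fractalkine. It had 129, 110.2 and 101 CPM in the WT libraries and 112 to 274 in the KO libraries, with a median of 210.2. KO replicates 1, 3, 4 and 5 had 199 to 274 CPM, KO replicate 6 lay just above WT at 142, and the library labelled KO replicate 2 lay within the WT range at 112. Its log2 fold change was 0.84 with all 9 libraries (standard error 0.285, edgeR adjusted p = 1) and 1.09 without KO replicates 2 and 6 (standard error 0.129, edgeR adjusted p = 0.0279). That call was lost when any of WT replicates 1, 2 and 3 or KO replicates 3 and 5 was also left out. Cx3cr1 was not among the genes whose levels were used to choose the libraries to leave out. It was, however, named for a small p in these same 9 libraries. The library labelled KO replicate 2 also lies at the WT level for it. The call of Cx3cr1 without KO replicates 2 and 6 is therefore a description and no independent test. Its annotated interval overlaps those of 9 other genes, Wdr48, Gorasp1 and Csrnp1 among them, so its count is uncertain. Whether the counting took strand into account is not stated, so reads of overlapping genes on opposite strands cannot be told apart.

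Some genes with the smallest unadjusted p over all 9 libraries did not set the library labelled KO replicate 2 apart, and edgeR called 0 of them. Gpd1, a glycerol-3-phosphate dehydrogenase, had 5.98, 5.80 and 5.44 CPM in WT and 3.05 to 4.65 in KO, with a median of 3.67. Ccr3, an eotaxin receptor, had 5.98, 10.9 and 6.19 CPM in WT and 3.75 to 5.54 in KO, with a median of 4.37. For both genes the 6 KO libraries and the 3 WT libraries did not overlap. Both were named for a small p in these same libraries, so the lack of overlap adds no support. The share of all genes without overlap is not given. Their log2 fold changes were -0.62 for Gpd1 (standard error 0.171) and -0.78 for Ccr3 (0.219), both with an edgeR adjusted p of 1, and Gpd1 overlaps Gm16537. The predicted gene Gm8121 and the gene A530064D06Rik were higher in each KO library than in each WT library, with log2 fold changes of 0.71 and 0.37. They too were named for a small p in these libraries, so this adds no support either. Gm8121 may share reads with copies of itself. Without KO replicate 6 the smallest p included those of Lars2 (log2 fold change 0.83), Gm23935 (0.84) and Gm24270 (0.74), which can share reads of repeated sequence and are uncertain.

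Genes of the cell cycle lay lower in KO, none of them called. Of the 18 tested, 18 had a negative log2 fold change with all 9 libraries, with a median of -0.20 (0.01 over all genes), as they had without KO replicate 6 (median -0.24) and without KO replicates 2 and 6 (median -0.28), while 17 of 18 had it with RLE factors in place of TMM. In none of these edgeR fits was any of the 18 called, and 4, 10 and 12 of them had an unadjusted p under 0.05. Over all genes tested, 118 of 14385, 409 of 14313 and 445 of 14310 had such a p with all 9 libraries, without KO replicate 6 and without both. Their summed level was 1457, 1621 and 1258 CPM in the WT libraries and 1170.3 to 1395 in the KO libraries, with a median of 1249. The groups overlapped. The library labelled KO replicate 2 was the highest of the KO libraries, and the most abundant member was Pcna, the clamp of DNA replication. Ccnb1, a mitotic cyclin named after its values were seen, had 33.6, 44.1 and 32.0 CPM in WT and 17.9 to 33.0 in KO. Its log2 fold change was -0.42, where the median of the list was -0.20. Outside these 18, and named for a small p over all 9 libraries, so that they add no support to the list, are Cdc25b, Foxm1 and Cenpn. Cdc25b, a phosphatase that activates the cyclin-dependent kinases and overlaps Spef1, had 29.0, 32.0 and 24.6 CPM in WT and 17.8 to 26.2 in KO. Of its KO libraries, that labelled replicate 2 alone reached the WT range, and its log2 fold change was -0.43 (standard error 0.144). Foxm1, a factor that drives mitotic genes, and Cenpn, a centromere protein, had log2 fold changes of -0.39 and -0.49, with standard errors of 0.136 and 0.164.

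Inflammatory genes lay mostly higher in KO, and their sum was highest in the library labelled KO replicate 2. The neutrophil markers described below had the same median with all 9 libraries, and their part in these values was not tested. Of the 15 tested of 18, 14 had a positive log2 fold change with all 9 libraries (13 when scaled by total counts alone), with a median of 0.35. All 15 had it without KO replicate 6 (median 0.32) and without KO replicates 2 and 6 (median 0.28). Summed, they reached 236, 228 and 263 CPM in WT and 201 to 336 in KO, with a median of 302, and the most abundant member was the chemokine Ccl3. KO replicate 6 was below the WT libraries, and KO replicates 2, 3, 4 and 5 were above them. The log2 fold change of Il1b, the cytokine interleukin-1 beta, was 1.48 with all 9 libraries and 0.36 without KO replicates 2 and 6, and that of the chemokine Ccl5 was 1.59 and 0.27. Of the 22 antiviral genes, 16 were higher with all 9 libraries (14 when scaled by total counts alone) and 12 without KO replicates 2 and 6, with medians of 0.24 and 0.03. Neither list held a called gene in these edgeR fits. An unadjusted p under 0.05 was reached by 0, 1 and 2 inflammatory genes with all 9 libraries, without KO replicate 6 and without KO replicates 2 and 6, and by 0 antiviral genes in each. Over all genes tested it was reached by 118 of 14385, 409 of 14313 and 445 of 14310 in these fits.

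The 21 genes of the study's own phagocytosis panel had a median of 0.01 with all 9 libraries and 0.07 without KO replicates 2 and 6. For the 13 antioxidant genes under NRF2 the medians were 0.08 and 0.07 (0.01 and 0.00 over all genes), for the 12 genes of cholesterol synthesis and LXR -0.04 and -0.02, and for the 12 immediate early genes -0.03 and -0.02. The 16 glycolysis genes had a median of 0.09 with all 9 libraries and -0.02 without KO replicates 2 and 6. Together they had 12392 CPM in KO replicate 6 and 6665 to 7806 CPM in the other 8 libraries. Gapdh, a member with near-identical copies elsewhere in the genome, had 7.56 to 72.1 CPM in WT and 8.04 to 118 in KO, and its level is uncertain. All 8 MHC class II genes were higher with all 9 libraries, with a median of 0.27, 6 of 8 without KO replicate 6, with a median of 0.08, and 7 of 8 without KO replicates 2 and 6, with a median of 0.13. They summed to 2884 CPM in KO replicate 6 and 963 to 1475 CPM in the other 8 libraries. Of the 10 genes of alternative activation 7 were tested, with medians of 0.19 and 0.21, and Retnla was at 0 in each vehicle library. The 12 mitochondrially encoded genes tested had medians of -0.06 and 0.09. Across these lists edgeR called 0 genes in either fit.

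**Figure D4:**
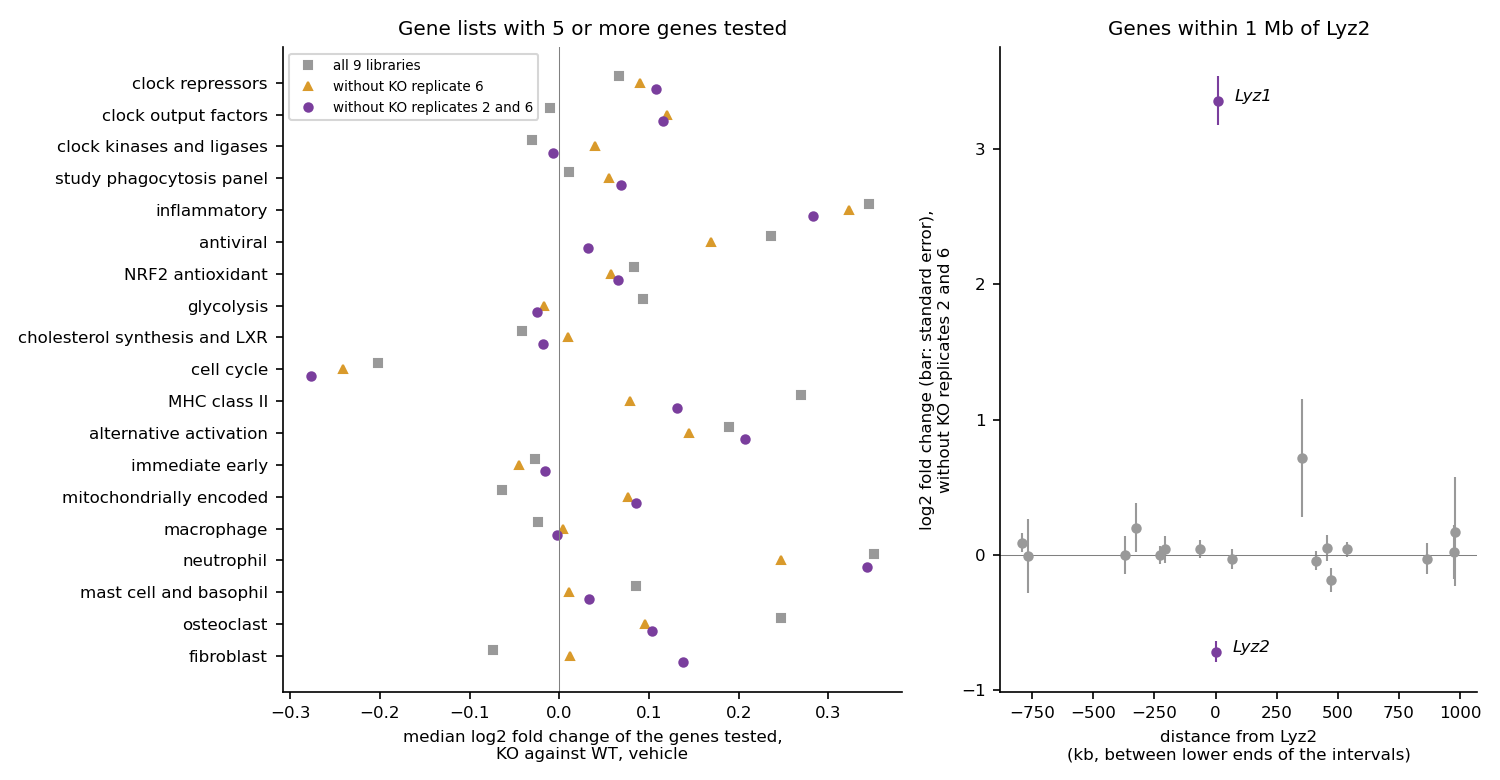
Left, median log2 fold change (KO against WT, vehicle) of gene lists with 5 or more genes tested, with all 9 libraries (squares), without KO replicate 6 (triangles) and without KO replicates 2 and 6 (circles); the cell cycle list lies at -0.20, -0.24 and -0.28. Right, log2 fold change and standard error of genes within 1 Mb of Lyz2 by their distance from it, without KO replicates 2 and 6, where Lyz1 (3.36) and Lyz2 (-0.71) stand out from the others.

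Markers of the labelled cell type were present in each vehicle library. The receptor for MCSF, Csf1r, had 2380.3, 2259 and 2239.6 CPM in WT and 1789.7 to 2553 in KO. All 15 macrophage markers were tested, 7 higher and 8 lower with all 9 libraries, with a median of -0.02. Summed, they had 26168, 23052 and 24509.7 CPM in WT and 17582 to 24961 in KO, and Lyz2 was the most abundant. Of the male genes Ddx3y, Kdm5d, Uty and Eif2s3y, each was at 0 in each vehicle library.

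Among markers of other cells, 11 of the 12 neutrophil genes were tested and 11 were higher in KO (10 when scaled by total counts alone, 9 without KO replicate 6), with a median of 0.35 with all 9 libraries and 0.34 without KO replicates 2 and 6, where 0 were called. Their summed level was 882, 841 and 835 CPM in WT and 743 to 1471 in KO, with a median of 1157, and S100a9 was the most abundant. KO replicates 3, 4, 5 and 6 were above WT, and KO replicates 1 and 2 below, so the groups overlapped. None of the 12 was at 0 in all libraries. Of 8 B cell genes 5 were tested, with a median of 0.45 (0.02 over 4 tested without KO replicates 2 and 6). These markers reached 253, 104 and 55.0 CPM in WT and 66.7 to 415 in KO, with Ighm as the most abundant and KO replicate 6 the highest. Fibroblast genes summed to 564, 812 and 1611 CPM in WT and 603 to 1670.5 in KO, with Col1a1 as the most abundant and a median of -0.07 over the 7 tested (0.14 without KO replicates 2 and 6). Osteoclast genes summed to 214, 217 and 246 CPM in WT and 203 to 464 in KO, with Acp5 as the most abundant, KO replicate 6 the highest and a median of 0.25 (0.10 without KO replicate 6 and without KO replicates 2 and 6).

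Megakaryocyte genes summed to 91.3, 80.8 and 119 CPM in WT and 90.2 to 141 in KO (most abundant Itga2b, median log2 fold change 0.20 over 4 tested). For endothelial genes the sums were 7.47, 8.51 and 51.9 in WT and 7.16 to 26.2 in KO (Kdr, median -0.85 over 4, and -0.37 over 3 without KO replicates 2 and 6), and for mast cells and basophils 46.5, 48.1 and 41.8 in WT and 36.8 to 63.7 in KO (Prss34, median 0.09 over 6). T cell genes had sums of 33.3, 31.6 and 27.97 CPM in WT and 23.6 to 39.4 in KO (Cd4, median -0.01 over 3). Dendritic, erythroid and NK cell genes summed to under 12 CPM in each library. The 2 erythroid genes tested were higher in KO, with a median of 0.99 with all 9 libraries. Without KO replicate 6 that median was 0.81, and without KO replicates 2 and 6 it was 0.98. The erythroid gene Car1 was at 0 in each vehicle library. Apart from Lyz2, which the macrophage list holds, no cell type marker was called in edgeR in either fit. The part that other cells had in the genotype values was not tested.

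The same genotype comparison under the other treatments uses other libraries, with the same replicate numbers, and edgeR called 0 of 13794 genes (0%) under LPS, 0 of 14235 (0%) under CCM and 0 of 13938 (0%) under both, with 105, 126 and 187 at an unadjusted p under 0.05 and 1 gene called by DESeq2 in each. Without KO replicates 2 and 6 it called 5 of 13610 (0.0367%) under LPS, 5 of 14072 (0.0355%) under CCM and 2 of 13723 (0.0146%) under both, where DESeq2 called 10, 19 and 4. The choice of libraries to leave out used the levels of Cry1, Nr1d2, Lyz1 and Lyz2, and Lyz1 had also been seen under these treatments. The calls of these 4 genes here are therefore descriptions and no independent tests. The same replicate numbers were left out for every gene, and with vehicle the library labelled KO replicate 2 lay near WT for Per2 as well. The calls of Per2 here are therefore no independent tests either. In edgeR Cry1 and Lyz1 were called under LPS, under CCM and under both. Lyz2 and Per2 were called under LPS and under CCM, Nr1d2 under CCM, and Rps27rt, a retrotransposed copy of a ribosomal gene that can share reads with its parent, under LPS. Cry1 had 21.9 to 24.3 CPM in WT under LPS, with 26.4 to 61.6 in the 5 KO libraries other than that labelled replicate 2, which had 22.6. For Nr1d2 under LPS the WT libraries had 15.8 to 17.8 CPM, those 5 KO libraries 5.71 to 11.7 and the library labelled KO replicate 2 15.6. In the WT libraries Cry1 thus lay higher and Nr1d2 lower under LPS than with vehicle. In each of the 4 treatments the 5 KO libraries other than that labelled replicate 2 did not overlap WT for Cry1, Nr1d2, Lyz1 and Lyz2. These genes had set that replicate apart, so this is a description and no test. With all 6 KO libraries, Cry1 and Lyz2 lacked overlap in 0 of the 4 treatments, Lyz1 in 1 and Nr1d2 in 2. With all 6, Arntl, Nr1d1 and Per2 lacked it in 1, and Cry2, Cx3cr1 and Npas2 in 0. Without the library labelled KO replicate 2, Arntl, Cry2, Cx3cr1 and Per2 lacked it in 2, Nr1d1 in 1 and Npas2 in 0. These counts too are a description and no test. The share over all genes is not given.

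**Figure D5:**
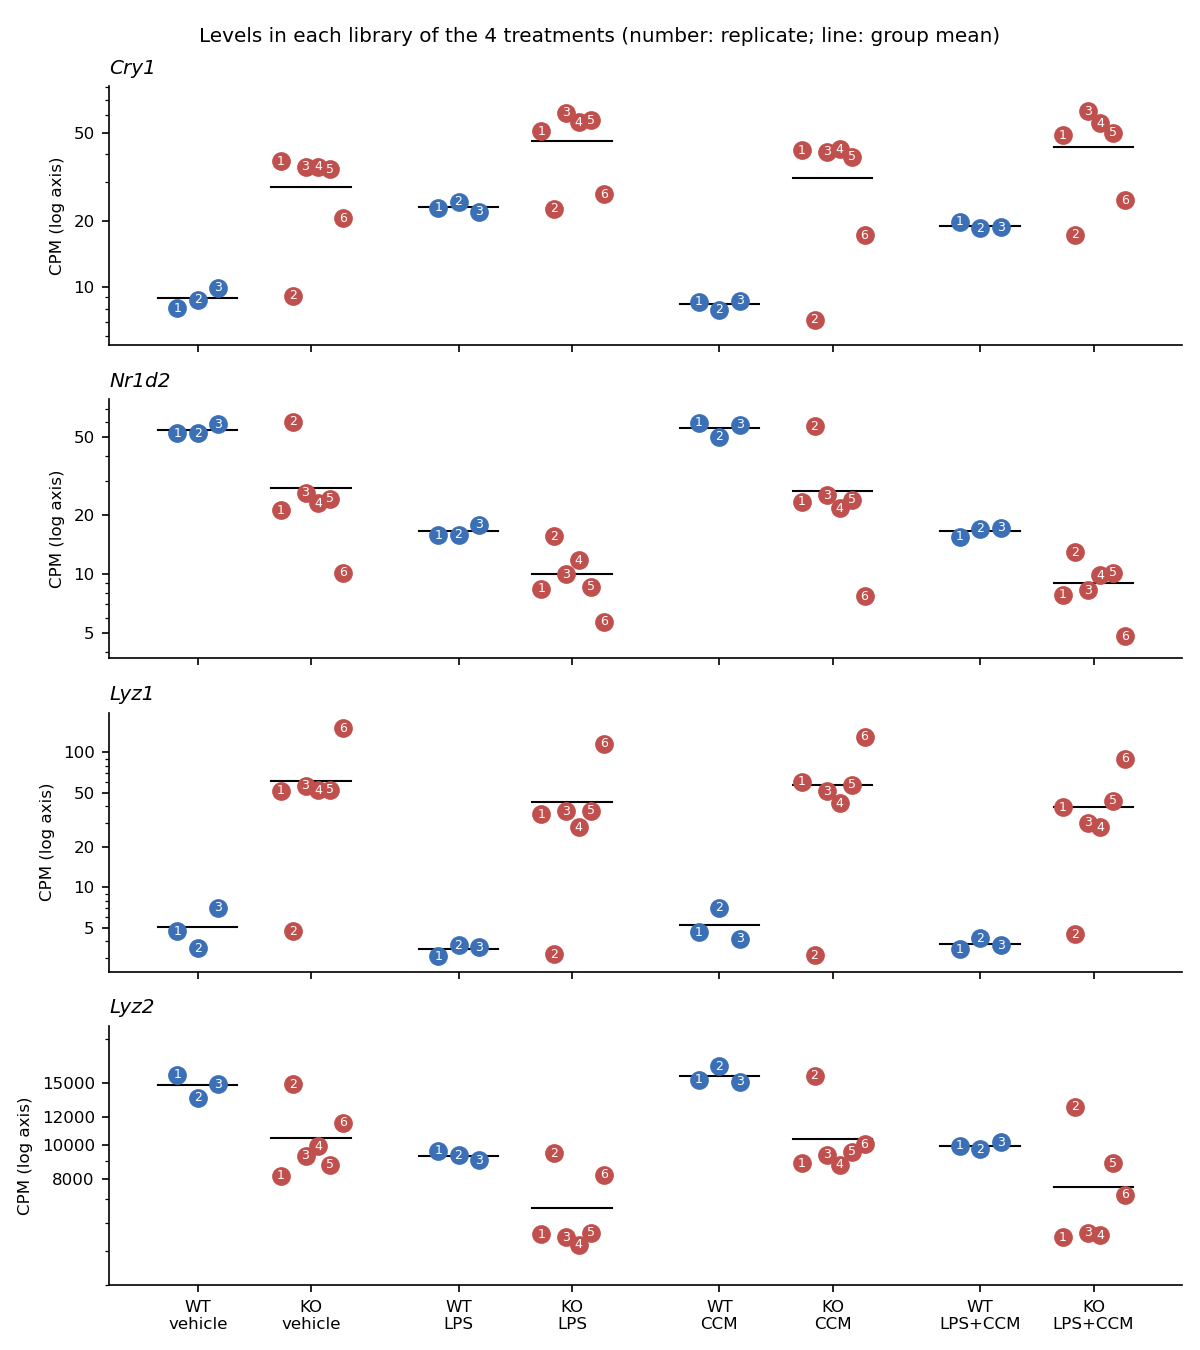
CPM of Cry1, Nr1d2, Lyz1 and Lyz2 in each library of the 4 treatments on log axes, WT in blue and KO in red, with the replicate number in each point and the group mean as a line. For Lyz1 the KO libraries labelled replicate 2 lie at 3.14 to 4.76 CPM and the other KO libraries at 27.8 CPM or more.

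Whether the genotype difference itself changed with treatment was tested in a fit of all 8 groups. With all 36 libraries edgeR called 0 of 15720 genes (0%) for LPS against vehicle, 0 (0%) for CCM against vehicle and 0 (0%) for both against vehicle, with 118, 131 and 143 at an unadjusted p under 0.05. With KO replicates 2 and 6 left out it called 0 of 15481 (0%) in each of the 3, with 262, 170 and 478 at an unadjusted p under 0.05, and no other tool was run for this test. These fits have no term for the replicate number, though KO replicates 2 and 6 carry their differences through the treatments. A fit blocked by replicate number within genotype, added after the data were seen, also called 0 (0%) in each of the 3 with all 36 libraries, with 258, 228 and 646 at an unadjusted p under 0.05. Without KO replicates 2 and 6 the blocked fit called 0 (0%) in each, with 364, 239 and 571. The log2 fold change of Cry1 under LPS was 0.69 below that with vehicle without KO replicates 2 and 6 (difference -0.69, standard error 0.120, edgeR adjusted p = 0.0879, and 0.117 when blocked). For Lyz1 that difference was -0.08 (standard error 0.283) and for Lyz2 -0.05 (standard error 0.173), both with an edgeR adjusted p of 1. With all 36 libraries the blocked fit gave -0.63 for Cry1 under LPS (standard error 0.186, not called). The levels of Cry1, Lyz1 and Lyz2 helped to choose the libraries left out. With 4 to 6 KO and 3 WT libraries in each group, a gene that missed the threshold is not shown to be alike in the genotypes or treatments.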

How the data were processed

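Poly(A) RNA of BMDM cultures was sequenced from both ends. Per the labels, the authors used fastp for cleaning, HISAT2 2.0.5 on mm10 for alignment and featureCounts 1.5.0-p3 for the counts of each gene. The deposited counts are whole numbers for 54532 genes, not normalized, and the authors' gene length column (other, in bases) was used to sort genes by length. The members and gene lists were chosen with earlier results of these data known. The 9 vehicle libraries, with 13469262 to 28288923 counts each, were fitted in edgeR 4.0.16 (R 4.3.3) with filterByExpr, TMM factors, estimateDisp, glmQLFit and glmQLFTest, two-sided, with no block. A gene was called when its p, adjusted over all genes tested (Benjamini-Hochberg), was 0.05 or less. The interaction used 1 fit of 8 groups. The fit was also run on simulated counts, whose outcome is not given here and supports no result. Libraries of a group differed by a chi-square of 7.97 to 238 per degree of freedom, where counting noise alone gives about 1. What depth alone limits was not tested.

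Genes were named if they were Arntl, a lysozyme or a clock gene, were called, were among those with the smallest p at an average log2 CPM of at least 1, or were examples of the 19 pathway and 12 cell type lists. Clec4n, Gm12411, Wif1, Yeats4, Cpsf6, Il1b, Il6, Ccl5, Ccnb1, Gapdh and Rps27rt were named after their values were seen. Correlations used log2(CPM + 1). Alternatives were DESeq2 1.42.0, RLE factors, total counts, no filter on low counts, the replicate number as a block, all 36 libraries in 1 fit, limma 3.58.1 voom with quality weights, robust dispersion and leaving out each library. Leaving out KO replicates 2 and 6 together was chosen after seeing the data. Positions are from GENCODE vM21, promoters from RefSeq on GRCm38.p6. None of the 36 count columns was left out.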

Additional observations from a re-analysis of the deposited data

Results flagged for a closer look

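Among the 6 KO vehicle libraries, the gap between the highest or lowest library and its neighbour was divided by the range of the group. Of 130 measures, 41 had a ratio above the 95% critical value of Dixon's test for 6 samples. Chance gives about 1 in 20 groups only for measures chosen without regard to these libraries, and the measures are not independent. Some genes were named from these same libraries. E2f8, Lmnb1, Pkmyt1 and Slamf9 were named for a small p without KO replicate 6. The 41 can therefore not be set against 1 in 20. KO replicate 6 was the library that stood apart in 38 of the 41.

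KO replicate 6 was highest, with the ratio in brackets, for Acp5 (0.859), Aldoa (0.848), Arpc1b (0.731), Bst2 (0.816), C1qb (0.828), Cd68 (0.78), Cd74 (0.741), Cd79b (0.873), Cfl1 (0.766), Eno1 (0.751) and Fcer1g (0.835). It was also highest for H2-Ab1 (0.788), H2-Eb1 (0.677), Hba-a1 (0.757), Igkc (0.656), Lck (0.68), Ldha (0.687), Lyz1 (0.646), Oas1a (0.703), Pkm (0.812), Pkmyt1 (0.776), Prdx1 (0.859) and Slamf9 (0.813). It was lowest for Arntl (0.688), Cd44 (0.685), Dusp1 (0.683), E2f8 (0.819), Fbxw11 (0.663), Lmnb1 (0.704), mt-Co1 (0.824), mt-Cytb (0.85), mt-Nd1 (0.807), mt-Nd5 (0.679), Nampt (0.657), Nlrp3 (0.641) and Wee1 (0.724). The same library had the lowest percent of counts from mitochondrially encoded genes (0.863) and the lowest median correlation with the other libraries (0.943).

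The library labelled KO replicate 2 was highest for Nr1d2 (0.681), KO replicate 4 for Cdh5 (0.689) and KO replicate 3 for Hmox1 (0.773). What set these libraries apart was not tested.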

How the results depend on the processing

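With all 9 libraries, the count of 0 called vehicle genes (edgeR, 118 at an unadjusted p under 0.05) was also 0 under RLE factors, total counts alone, no filter on low counts, the replicate block, all 36 libraries in 1 fit, voom, robust dispersion and each library left out in turn. The number at an unadjusted p under 0.05 did change, to 1372 with the block, 901 with voom, 439 with no filter and 409 without KO replicate 6, and down to 70 without WT replicate 2, 81 without KO replicate 5 and 86 without WT replicate 1. DESeq2 called 1 gene in each of the 4 treatments, Lyz1 with vehicle. Under LPS the replicate block and voom each called 1 gene, Rps27rt, and leaving out a library gave 0 to 1, Gapdh without WT replicate 1. Under LPS and CCM together, voom called 1, Nr1d2.

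Without KO replicates 2 and 6, chosen after seeing the data, the counts were 5 with vehicle, 5 under LPS, 5 under CCM and 2 under both, and 2 near Lyz2. The vehicle count of 5 was also 5, of the same genes, under RLE factors, total counts alone, voom, robust dispersion and the fit of all treatments, 7 with no filter on low counts (Per2 and Gm12411 added), 8 in DESeq2, 0 with the replicate block and 3 to 6 when a further library was left out. The block leaves 1 residual degree of freedom there and 2 with all 9 libraries, so its counts say nothing about stability. It was 3 without WT replicate 1, WT replicate 3, KO replicate 3 or KO replicate 5, where Lyz2 and Cx3cr1 were no longer called, and 4 without WT replicate 2, where Cx3cr1 was not. In DESeq2 the counts under LPS, CCM and both were 10, 19 and 4. The coefficient of variation fell from 0.275 to 0.131 without KO replicate 6 and was 0.132 without KO replicates 2 and 6. The cause of these differences was not tested.

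The log2 fold change of Arntl stayed negative and uncalled, from -0.44 without WT replicate 1 to -0.20 without KO replicate 6. Of 136 named genes, none of them called with all 9 libraries, 104 stayed within the spread between libraries with the replicate block and 125 with voom. The sign of the log2 fold change differed for 40 with the block, 31 with voom, 32 of 134 without KO replicate 6 and 36 of 134 without KO replicates 2 and 6, and for 0 to 18 in the other settings. The block leaves KO replicates 4, 5 and 6 without a WT partner, so they add nothing to it. Deviations of WT and KO libraries with the same number correlated at -0.205, 0.304 and -0.0297, and the numbers were not used as pairs. How far depth limits these results was not tested.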

Other observations

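The library labelled KO replicate 2 had the highest inflammatory levels of the 9 vehicle libraries for 3 genes chosen after their values were seen. Il1b had 27.0 CPM there and 1.74 to 5.602 in the other 8, Il6 had 3.45 and 0.189 to 0.687, and Ccl5 had 30.4 and 1.82 to 11.2.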
